A study of Mus musculus with 30 samples.

Results

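The genes described here are a fixed set of 39 mouse genes of the response to low oxygen and of glycolysis, chosen by name and grouped by role. Of these, 38 were measured, among 19938 genes on the arrays. Gpi1 had no probe set that named it alone. The set was chosen with earlier results of these data known. Its counts beside all genes, and the tests of its isoform pairs, do not allow for that choice. The study injected Cre recombinase constructs into mouse brain and profiled the resulting glioblastomas beside normal brain on 30 arrays. The groups were 4 tumors from GFAP-CRE in the cortex, 4 from SYN1-CRE in the cortex, 7 from GFAP-CRE in the hippocampus, 4 from NES-CRE in the hippocampus, 3 from GFAP-CRE in the subventricular zone (SVZ), and 4 arrays each of normal cortex and normal hippocampus. GFAP is the promoter of an astrocyte gene that neural stem cells also use, SYN1 that of a neuronal synapse gene, and NES that of a neural progenitor gene. The alleles that Cre acted on, the strain, and the ages of the mice are not given in the sources used here. No normal SVZ group was labelled, so SVZ tumors were set against the mean of both normal tissues, which leaves region and tumor mixed in that comparison. Normal cortex served GFAP and SYN1 cortex tumors alike, normal hippocampus served GFAP and NES hippocampus tumors, and the SVZ comparison used both, so those results share controls.

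Cells short of oxygen stabilise the hypoxia-inducible factors (HIFs), whose alpha subunits are otherwise marked for destruction by oxygen-dependent prolyl hydroxylases. The stabilised factors bind hypoxia response elements and raise genes for glucose import, glycolysis, lactate export, pH control, collagen modification and vessel growth. Glioblastomas are known for hypoxic zones around necrosis and for high glycolysis even where oxygen is present, and normal neurons and glia differ in which glycolytic isoforms they use.

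Levels are log2 probe set intensities from the deposited table, listed in the order of the replicate numbers in the labels. They are not comparable between genes, since probes differ. Hk1, Pgk1, Pgam1, Pkm, Ldhb and Bnip3 have several probe sets, of which only the one with the highest mean is shown. Probe set numbers of the other members run in order of chromosome, but those shown for Hk1, Pgk1, Pgam1 and Bnip3 lie out of that order. Whether the signal shown for Hk1, Pgk1, Pgam1 and Bnip3 comes from the genes' own loci was not tested. Differences are tumor minus normal group means on this log2 scale, given ± the standard error of the limma fit with a Benjamini-Hochberg adjusted p over all genes, and a gene is said to have risen or fallen where adjusted p was under 0.05. The labels do not say that arrays came from separate animals, so these p-values measure only the spread between the samples, which may be technical. Array medians ran from 7.03 to 7.30. Interquartile ranges ran from 2.02 in GFAP cortex tumor 1 to 3.07 in GFAP hippocampus tumor 3. The highest values were 15.24, 16.07, 15.68 and 15.84 in GFAP hippocampus tumors 1, 5, 6 and 7, and 13.78 to 14.58 in the other arrays. GFAP cortex tumor 1 and GFAP hippocampus tumors 5 to 7 were taken to stand apart from the other arrays of their groups, and counts without them are given where they change. GFAP hippocampus tumor 1 was kept in those counts. Its mean correlation with its group, 0.930, was below the 0.939 and 0.935 of tumors 6 and 7. Where a count from another fit stands without the share of all genes, it cannot show a change particular to the members. In whole tissue, fewer cells of a type and less RNA per cell cannot be told apart.

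In the GFAP and SYN1 tumors more members rose than fell, and the rising ones were mainly glucose and lactate transporters, Hk2, collagen-modifying enzymes and secreted factors. In GFAP cortex tumors 13 of 38 members rose and 5 fell, where 9% of all genes rose and 18.8% fell. SYN1 cortex tumors had 19 members higher and 4 lower, against 18.2% and 20.5% of all genes. GFAP hippocampus tumors had 22 higher and 1 lower, against 16.1% and 25.2%. NES hippocampus tumors had 3 higher (7.89%) and 1 lower (2.63%), near the 5.69% and 2.86% of all genes. SVZ tumors had 17 higher and 4 lower, against 16.2% and 21.4%. The median member difference was 0.25, 0.64, 0.82, 0.24 and 0.51 in these 5 comparisons, while the median over all genes was -0.10, -0.04, -0.08, -0.04 and -0.00. Counting members whose tumor arrays all lay above or all below the normal arrays gave 15 above and 7 below in GFAP cortex, against 13.3% and 23.9% of all genes. The same counts were 22 and 2 in SYN1 cortex (23.1% and 25.9%), 15 and 1 in GFAP hippocampus (8.43% and 17.8%), 8 and 3 in NES (13.6% and 11%) and 20 and 3 in SVZ tumors (19.1% and 23.2%). Without each array of the compared groups in turn, 11 of the 18 calls held in GFAP cortex tumors, 18 of 23 in SYN1 cortex, 19 of 23 in GFAP hippocampus, 13 of 21 in SVZ and 0 of 4 in NES tumors.

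Quantile normalization moved the split over all genes in GFAP cortex tumors from 1794 higher and 3742 lower to 2646 and 3605. Members higher and lower there became 17 and 3. In NES tumors, centring each array on its median moved the split from 1135 higher and 571 lower to 1098 and 852, with 2 members higher and 1 lower. With only the compared arrays in the fit, calls ended for Slc2a3 and Ldhb in GFAP cortex (adjusted p = 0.097 and 0.0737), for Egln3, P4ha2, Plod1 and Vegfa in GFAP hippocampus (adjusted p = 0.0573, 0.0654, 0.0692 and 0.104) and for Slc2a1 in NES tumors (adjusted p = 0.0707). Median centring ended those of Ldha in SYN1 cortex, Pgk1 in SVZ and Slc2a1 in NES tumors (adjusted p = 0.0539, 0.0533 and 0.0715) and that of Pfkfb3 in GFAP cortex (adjusted p = 0.05001). Trended and robust variance ended Pfkp in SVZ and Slc2a1 in NES tumors (adjusted p = 0.074 and 0.0587). No member was called in any of the 5 comparisons with normal tissue among Pfkl, Pgam1, Pfkfb4, Pdk1, Egln1, Ndrg1, Ddit4 and Bnip3.

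**Figure D1:**
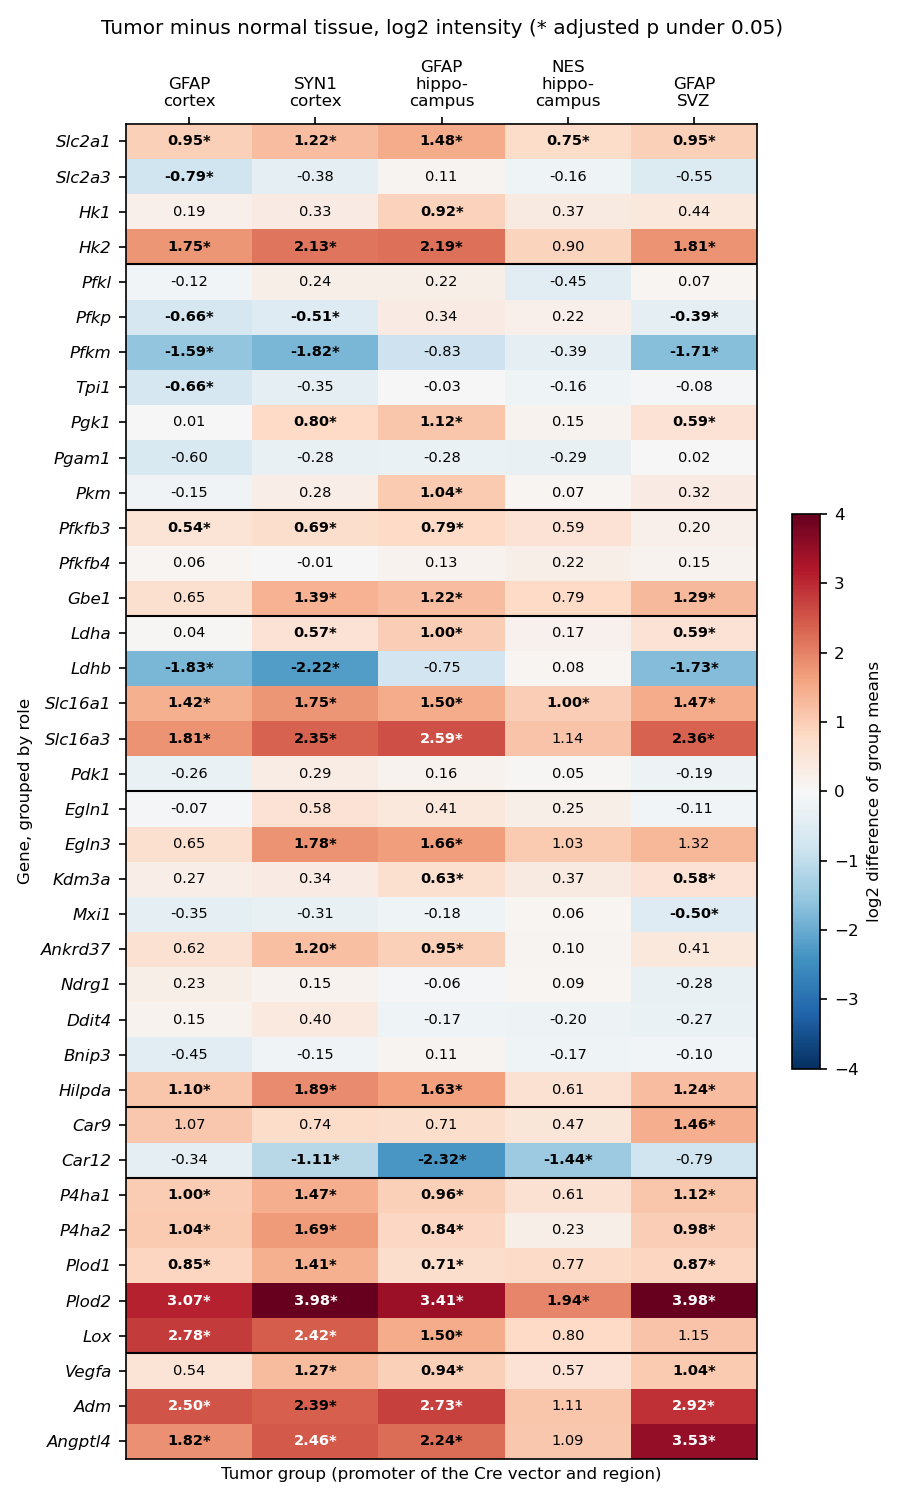
Log2 difference of each tumor group from normal tissue (columns) for the 38 measured genes (rows, grouped by role); the number in a cell is the difference and an asterisk marks adjusted p under 0.05 in limma. Plod2 has the largest positive value in each column, from 1.94 in NES tumors to 3.98 in SVZ tumors, and the lowest values are Ldhb at -2.22 in SYN1 cortex tumors and Car12 at -2.32 in GFAP hippocampus tumors.

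The core of the hypoxia response element was looked for in the 250 bases before each RefSeq transcription start of GRCm38.p6, to show which members carry it beside those that moved. The letters searched were ACGTG and GCGTG on both strands, with overlapping matches counted, so that the palindrome CACGTG counts on each strand. RefSeq promoter entries existed for 33 of the 38 genes, with 47 starts, and 35 of these 47 windows (74.47%) held at least 1 match, against 38.6% of 32851 promoters of the same length. ACGTG itself was in 51.06% of member windows and 16.57% of all. Member windows were also richer in G and C, with a median of 60.4% against 52.4%, and both motifs contain CG; the part of base composition in this was not tested. A match is a run of letters and not a shown binding site. Shown are 60-base windows of 6 members that rose in at least 2 tumor groups, where matches lie densest, and of Bnip3, which passed in none. For Pgk1, Pgam1 and Bnip3, whether the array signal comes from the locus searched here was not tested. Capitals mark the matches, and each runs 5′ to 3′ on its gene's strand.
Ldha: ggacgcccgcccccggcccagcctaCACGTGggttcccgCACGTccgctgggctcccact
Slc16a3: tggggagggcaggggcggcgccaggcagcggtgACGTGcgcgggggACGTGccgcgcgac
Slc2a1: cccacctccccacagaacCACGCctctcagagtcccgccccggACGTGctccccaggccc
Pgk1: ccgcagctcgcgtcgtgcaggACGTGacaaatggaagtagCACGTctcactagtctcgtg
Adm: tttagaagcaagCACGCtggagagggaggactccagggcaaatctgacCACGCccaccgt
Hk2: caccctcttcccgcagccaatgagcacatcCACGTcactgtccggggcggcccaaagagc
Bnip3: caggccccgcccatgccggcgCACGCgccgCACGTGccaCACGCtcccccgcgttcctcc

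These windows lie outside the transcripts of the starts they belong to. The lactate dehydrogenase window is Ldha at chr7:46845731-46845790 on the plus strand, from 73 to 14 bases before the start. The lactate exporter window is Slc16a3 at chr11:120949007-120949066 on the plus strand, from 60 to 1 bases before the start. The glucose transporter window is Slc2a1 at chr4:119108666-119108725 on the plus strand, from 79 to 20 bases before the start. For the kinases, the windows are Pgk1 at chrX:106186929-106186988 on the plus strand, from 171 to 112 bases before the start, and Hk2 at chr6:82774477-82774536 on the minus strand, from 82 to 23 bases before the start. The windows of the peptide hormone and of the mitophagy gene are Adm at chr7:110627555-110627614 on the plus strand, from 102 to 43 bases before the start, and Bnip3 at chr7:138909585-138909644 on the minus strand, from 138 to 79 bases before the start. The Bnip3 window has 4 matches and the Hk2 window 1. No match was found in the windows of Gbe1, which rose in 3 tumor groups, of Car12, which fell in 3, or of Tpi1, which fell in GFAP cortex tumors. Pfkm, Pfkp, Ldhb and Mxi1, which fell in at least 1 group, did have matches. So did Pfkl, Pgam1, Pfkfb4, Pdk1, Egln1 and Ddit4, which were not called against normal tissue. Matches were thus not confined to members that rose. Plod2, Lox, Angptl4, Slc2a3 and Ndrg1 are named only.

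Of the 4 genes for glucose entry and trapping, Slc2a1 rose in each tumor group and Hk2 in all but the NES tumors. Slc2a1 encodes the glucose transporter of brain vessels and glia, and Hk2 the inducible hexokinase that phosphorylates glucose. Slc2a1 stood at 11.18, 11.35, 11.27 and 11.33 in the normal cortex arrays, at 12.74, 11.93, 12.13 and 12.13 in GFAP cortex tumors and at 12.32, 12.43, 13.02 and 12.26 in SYN1 cortex tumors. In hippocampus, Slc2a1 stood at 11.13, 10.92, 11.54 and 11.03 in normal tissue, from 11.81 to 12.97 with a median of 12.68 in the 7 GFAP tumors and at 12.55, 12.02, 11.76 and 11.29 in NES tumors, and the SVZ tumors gave 12.13, 12.32 and 12.05. No tumor array overlapped normal tissue except among NES tumors, where tumor 4 lay within the normal range. The Slc2a1 rise was 0.95 ± 0.24 (adjusted p = 0.00412) in GFAP cortex, 1.22 ± 0.24 (adjusted p = 0.000181) in SYN1 cortex, 1.48 ± 0.21 (adjusted p = 6.19e-06) in GFAP hippocampus, 0.75 ± 0.24 (adjusted p = 0.0487) in NES hippocampus and 0.95 ± 0.23 (adjusted p = 0.00149) in SVZ tumors. The GFAP hippocampus value is a 2.79-fold rise. The NES call was lost without NES tumor 1, at 0.53 (adjusted p = 0.285), and without NES tumor 2 or 3 or normal hippocampus 1, 2 or 4, at 0.67 to 0.80 (adjusted p = 0.0535 to 0.145).

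In cortex, the Hk2 level was 7.005, 6.89, 7.11 and 7.20 in normal tissue, 9.44, 8.14, 8.69 and 8.94 in GFAP tumors and 8.71, 9.03, 9.61 and 9.37 in SYN1 tumors. Hippocampal Hk2 levels were 7.13, 7.35, 7.34 and 7.19 in normal tissue, 8.63 to 10.51 with a median of 9.22 in the 7 GFAP tumors and 8.85, 8.43, 7.62 and 7.70 in NES tumors, beside 9.04, 9.02 and 8.81 in SVZ tumors. Every tumor array exceeded the normal arrays it was set against, with GFAP hippocampus tumors 6 and 7 the highest. Hk2 rose by 1.75 ± 0.32 (adjusted p = 0.000357) in GFAP cortex, 2.13 ± 0.32 (adjusted p = 1.08e-05) in SYN1 cortex, 2.19 ± 0.29 (adjusted p = 1.98e-06) in GFAP hippocampus and 1.81 ± 0.31 (adjusted p = 4.93e-05) in SVZ tumors. In GFAP hippocampus tumors that is 4.57-fold. The NES difference was 0.90 ± 0.32 (adjusted p = 0.0849), in which tumors 1 and 2 stood above tumors 3 and 4.

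Their partner isoforms Hk1 and Slc2a3 passed in 1 tumor group each, in opposite directions. Hk1 levels in normal cortex were 12.08, 11.91, 11.82 and 11.78, against GFAP cortex tumors at 11.998, 12.10, 12.04 and 12.22 and SYN1 cortex tumors at 12.25, 12.01, 12.24 and 12.39. Normal hippocampus gave Hk1 levels of 11.86, 11.69, 12.13 and 11.99, the 7 GFAP tumors there 12.37 to 13.51 with a median of 12.77, NES tumors 12.50, 12.16, 12.48 and 12.01 and SVZ tumors 12.49, 12.44 and 12.11. Hk1, the hexokinase that prevails in normal brain, rose in GFAP hippocampus tumors by 0.92 ± 0.17 (adjusted p = 0.000102), with no overlap, and was within 0.19 to 0.44 of normal tissue, not called, in the other groups. Slc2a3 stood at 11.04, 10.81, 10.93 and 10.79 in the normal cortex arrays, at 9.15, 10.67, 9.92 and 10.65 in GFAP cortex tumors and at 10.68, 10.25, 11.03 and 10.06 in SYN1 cortex tumors. Hippocampal Slc2a3 levels were 10.89, 10.42, 10.68 and 10.53 in normal tissue, 10.46 to 10.99 with a median of 10.80 in the 7 GFAP tumors and 10.07, 10.68, 10.85 and 10.27 in NES tumors, beside 10.82, 10.43 and 9.38 in SVZ tumors. Slc2a3, the high-affinity glucose transporter of neurons, fell in GFAP cortex tumors by 0.79 ± 0.29 on the log2 scale (adjusted p = 0.0385). GFAP cortex arrays lay below every normal cortex array, tumor 1 lowest, and the other groups overlapped normal tissue. The call was lost without tumor 1, at -0.48 (adjusted p = 0.196), and without tumor 3 or any 1 normal cortex array, at -0.83 to -0.73 (adjusted p = 0.0574 to 0.0933). With quantile normalization it was -0.47 (adjusted p = 0.209).

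The 7 measured glycolytic enzymes did not move as a block. Pfkm and Pfkp fell in both cortex groups, while Pgk1 and Pkm rose in hippocampal GFAP tumors. Pfkm, Pfkp and Pfkl encode the muscle, platelet and liver subunits of phosphofructokinase, the committing step. In cortex, the Pfkm level was 11.995, 11.84, 11.74 and 11.69 in normal tissue, 8.58, 10.94, 10.78 and 10.63 in GFAP tumors and 9.93, 10.11, 9.99 and 9.97 in SYN1 tumors. In hippocampus, Pfkm stood at 11.69, 11.41, 11.58 and 11.48 in normal tissue, from 9.70 to 11.93 with a median of 10.70 in the 7 GFAP tumors and at 10.40, 11.28, 11.71 and 11.20 in NES tumors, and the SVZ tumors gave 9.71, 9.71 and 10.49. The cortex and SVZ tumors lay wholly below normal tissue, GFAP cortex tumor 1 lowest, and GFAP hippocampus tumor 5 lay above it. Pfkm fell by 1.59 ± 0.41 in GFAP cortex (adjusted p = 0.00485), by 1.82 ± 0.41 in SYN1 cortex (adjusted p = 0.000751) and by 1.71 ± 0.39 in SVZ tumors (adjusted p = 0.000947). The differences in GFAP and NES hippocampus tumors, -0.83 ± 0.36 (adjusted p = 0.0662) and -0.39 ± 0.41 (adjusted p = 0.617), did not pass. Without the 4 arrays that stand apart, Pfkm did fall in GFAP hippocampus tumors, at -1.21 (adjusted p = 0.000301). With tumors 1 to 4 only it was also -1.21 (adjusted p = 0.0101), and tumors 5 to 7 alone gave -0.33 (adjusted p = 0.537).

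Pfkp levels in normal cortex were 11.17, 11.09, 11.13 and 10.97, against GFAP cortex tumors at 10.25, 10.66, 10.45 and 10.35 and SYN1 cortex tumors at 10.18, 10.57, 10.98 and 10.58. Normal hippocampus gave Pfkp levels of 10.76, 10.39, 10.54 and 10.56, the 7 GFAP tumors there 10.53 to 11.26 with a median of 10.93, NES tumors 10.78, 10.89, 10.98 and 10.48 and SVZ tumors 10.44, 10.31 and 10.57. GFAP cortex tumors alone lay wholly below the normal tissue of their region. Pfkp fell in the 3 groups outside the hippocampus, by 0.66 in GFAP cortex (adjusted p = 0.00269), 0.51 in SYN1 cortex (adjusted p = 0.0101) and 0.39 in SVZ tumors (adjusted p = 0.0419), and with quantile normalization none of the 3 passed (-0.35, -0.46 and -0.34). Without SYN1 tumor 1 the SYN1 difference was -0.38 (adjusted p = 0.0639). The SVZ call was lost without SVZ tumor 1 or 2, at -0.39 (adjusted p = 0.105) and -0.33 (adjusted p = 0.185), and without normal cortex 1, 2 or 3 or normal hippocampus 1, 3 or 4, at -0.39 to -0.36 (adjusted p = 0.0516 to 0.0736). Pfkp also stood lower in normal hippocampus than in normal cortex by 0.53 ± 0.16 (adjusted p = 0.127), which did not pass. Pfkl stood at 10.18, 9.78, 9.90 and 9.95 in the normal cortex arrays, at 9.75, 9.83, 9.73 and 10.02 in GFAP cortex tumors and at 10.02, 10.17, 10.98 and 9.61 in SYN1 cortex tumors. In hippocampus, Pfkl stood at 10.65, 10.23, 10.37 and 10.24 in normal tissue, from 10.33 to 11.12 with a median of 10.48 in the 7 GFAP tumors and at 9.55, 10.13, 10.26 and 9.73 in NES tumors, and the SVZ tumors gave 10.48, 10.60 and 9.62. Pfkl overlapped normal tissue in each tumor group, with differences from -0.45 in NES to 0.24 in SYN1 tumors.

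Pgk1, which makes the glycolytic chain's earlier ATP, and Pkm, the pyruvate kinase of its last step, both rose in GFAP hippocampus tumors. In cortex, the Pgk1 level was 11.94, 11.79, 11.79 and 11.72 in normal tissue, 12.07, 11.43, 11.65 and 12.13 in GFAP tumors and 12.51, 12.72, 13.06 and 12.13 in SYN1 tumors. Hippocampal Pgk1 levels were 11.94, 11.62, 12.08 and 11.69 in normal tissue, 12.49 to 13.78 with a median of 12.89 in the 7 GFAP tumors and 12.29, 12.03, 11.94 and 11.67 in NES tumors, beside 12.37, 12.46 and 12.40 in SVZ tumors. GFAP hippocampus, SYN1 cortex and SVZ tumors did not overlap normal tissue, while GFAP cortex tumors spanned it. Pgk1 rose by 1.12 ± 0.20 (adjusted p = 9.44e-05) in GFAP hippocampus, 0.80 ± 0.23 (adjusted p = 0.00589) in SYN1 cortex and 0.59 ± 0.22 (adjusted p = 0.0325) in SVZ tumors, and differed by 0.01 ± 0.23 (adjusted p = 0.98) in GFAP cortex and 0.15 ± 0.23 (adjusted p = 0.752) in NES tumors. The SVZ call was lost without any 1 of the 3 SVZ tumors, at 0.61 (adjusted p = 0.0745), 0.57 (adjusted p = 0.104) and 0.59 (adjusted p = 0.079), and without normal hippocampus 2 or 4, at 0.55 to 0.57 (adjusted p = 0.0515 to 0.0544).

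Pkm levels in normal cortex were 12.21, 12.22, 12.07 and 12.04, against GFAP cortex tumors at 12.28, 11.72, 11.95 and 11.999 and SYN1 cortex tumors at 12.50, 12.36, 12.67 and 12.12. Normal hippocampus gave Pkm levels of 12.06, 11.87, 12.13 and 11.83, the 7 GFAP tumors there 12.57 to 13.72 with a median of 12.76, NES tumors 12.28, 12.19, 12.05 and 11.64 and SVZ tumors 12.28, 12.46 and 12.36. Pkm rose in GFAP hippocampus tumors alone among the 5 comparisons, by 1.04 ± 0.18 (adjusted p = 7.66e-05) or 2.06-fold, with tumors 6 and 7 highest; the other 4 differences ran from -0.15 to 0.32. Tpi1, triosephosphate isomerase, fell in GFAP cortex tumors by 0.66 ± 0.15 (adjusted p = 0.00208), its levels being 11.42, 11.73, 11.87 and 12.09 there and 12.57, 12.40, 12.43 and 12.34 in normal cortex. Its other differences ran from -0.35 in SYN1 to -0.03 in GFAP hippocampus tumors. Pgam1, phosphoglycerate mutase, was called nowhere, with differences from -0.60 to 0.02, and GFAP hippocampus tumors 5 to 7 held its 3 lowest levels in that group (10.74, 11.75 and 11.45).

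**Figure D2:**
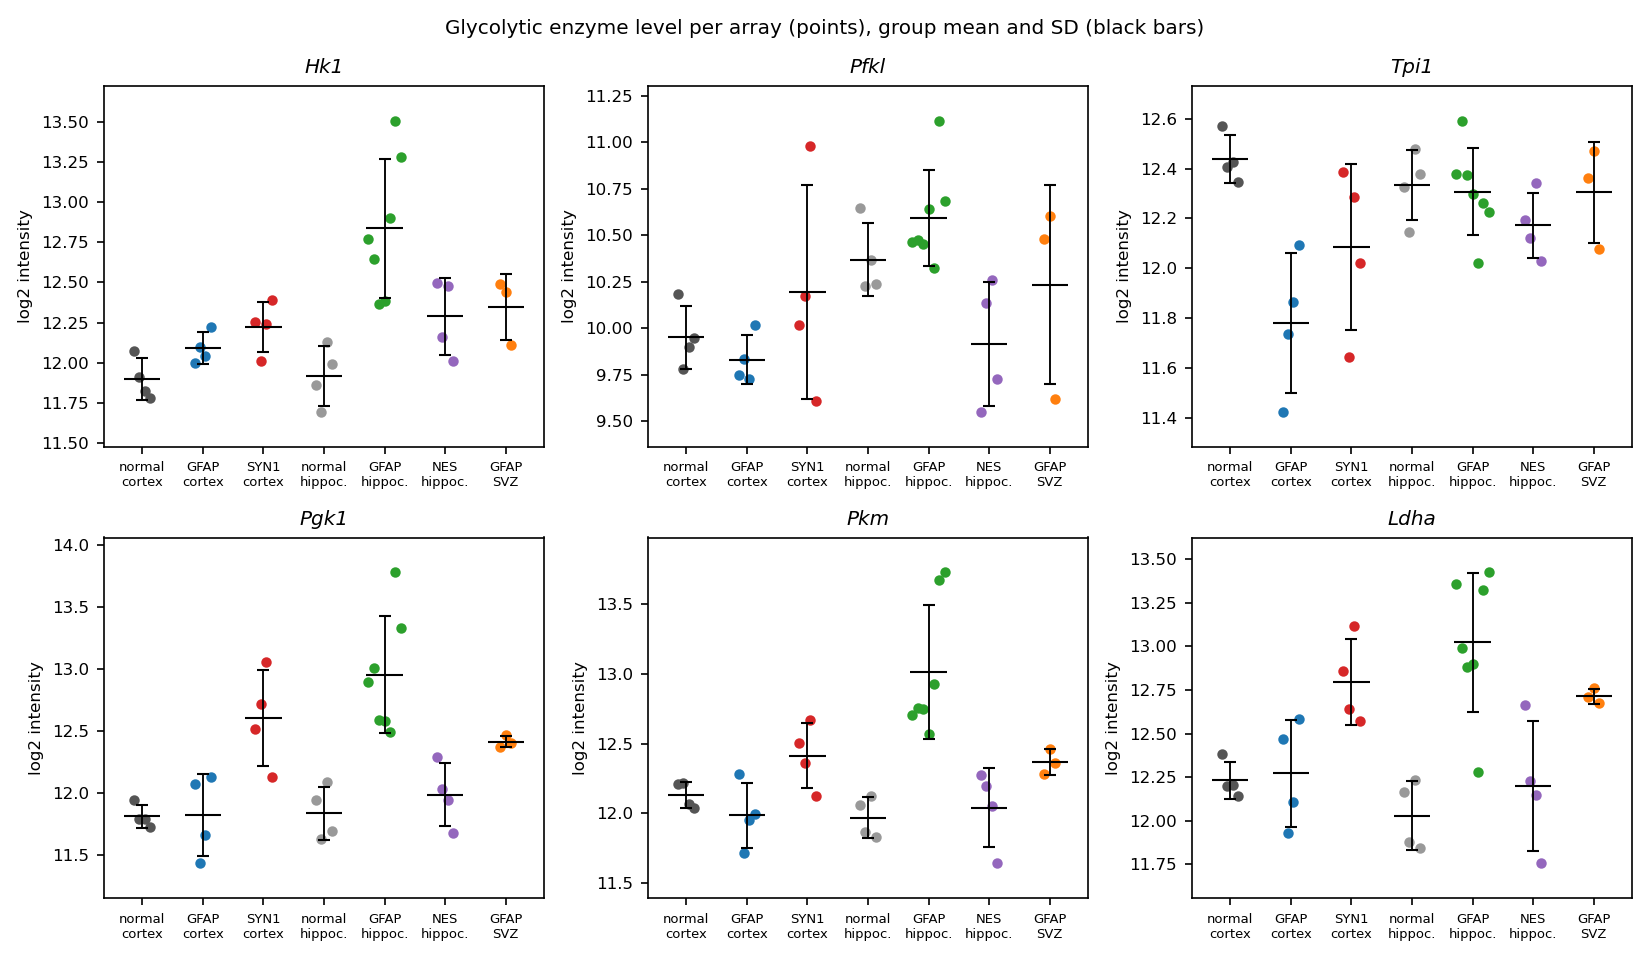
Log2 intensity of 6 glycolytic genes (panels) in each array (points) of the 7 groups (horizontal axis), with group means and SD as black bars. Hk1, Pgk1 and Pkm lie above normal tissue in all 7 GFAP hippocampus tumors, while GFAP cortex tumors sit below normal cortex for Tpi1 and overlap it for Pgk1 and Ldha.

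Pfkfb3, the kinase that makes the allosteric activator of phosphofructokinase, rose by 0.54 ± 0.19 (adjusted p = 0.0394) in GFAP cortex, 0.69 ± 0.19 (adjusted p = 0.00546) in SYN1 cortex and 0.79 ± 0.17 (adjusted p = 0.000673) in GFAP hippocampus tumors. The GFAP cortex call was lost without tumor 3, at 0.51 (adjusted p = 0.0866), or tumor 4, at 0.38 (adjusted p = 0.175), and without any 1 normal cortex array, at 0.52 to 0.56 (adjusted p = 0.0613 to 0.0809). Its relative Pfkfb4 differed by -0.01 to 0.22 and was not called. Gbe1 encodes the glycogen branching enzyme. Gbe1 stood at 8.20, 8.14, 8.09 and 8.07 in the normal cortex arrays, at 8.33, 8.69, 8.71 and 9.39 in GFAP cortex tumors and at 9.51, 9.31, 10.01 and 9.22 in SYN1 cortex tumors. In hippocampus, Gbe1 stood at 8.12, 7.88, 7.89 and 7.86 in normal tissue, from 8.34 to 9.88 with a median of 9.18 in the 7 GFAP tumors and at 9.32, 8.76, 8.47 and 8.36 in NES tumors, and the SVZ tumors gave 9.04, 8.91 and 10.002. All tumor arrays stood above the normal arrays they were set against. Gbe1 rose by 1.39 ± 0.28 (adjusted p = 0.000248) in SYN1 cortex, 1.22 ± 0.25 (adjusted p = 0.000328) in GFAP hippocampus and 1.29 ± 0.27 (adjusted p = 0.000369) in SVZ tumors, beside 0.65 ± 0.28 (adjusted p = 0.083) in GFAP cortex and 0.79 ± 0.28 (adjusted p = 0.0804) in NES tumors.

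Among the 5 pyruvate and lactate genes, both monocarboxylate transporters rose while Ldhb fell in the cortex and SVZ tumors. Slc16a3 encodes the low-affinity exporter typical of glycolytic cells and Slc16a1 the widely used carrier that moves lactate either way. In cortex, the Slc16a3 level was 7.57, 7.88, 7.58 and 7.74 in normal tissue, 9.92, 9.09, 9.29 and 9.72 in GFAP tumors and 9.67, 9.97, 10.60 and 9.95 in SYN1 tumors. Hippocampal Slc16a3 levels were 7.58, 7.40, 8.15 and 7.32 in normal tissue, 8.17 to 10.90 with a median of 10.49 in the 7 GFAP tumors and 9.49, 9.01, 8.28 and 8.23 in NES tumors, beside 10.45, 10.60 and 8.99 in SVZ tumors. Tumor and normal arrays did not overlap in any group, and GFAP hippocampus tumor 5 lay far below the other 6 of its group. Slc16a3 rose by 1.81 ± 0.42 (adjusted p = 0.00255) in GFAP cortex, 2.35 ± 0.42 (adjusted p = 7.85e-05) in SYN1 cortex, 2.59 ± 0.38 (adjusted p = 8.04e-06) in GFAP hippocampus and 2.36 ± 0.41 (adjusted p = 5.41e-05) in SVZ tumors, the hippocampal value being 6.02-fold. The NES difference was 1.14 ± 0.42 (adjusted p = 0.1).

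Slc16a1 levels in normal cortex were 9.24, 9.25, 9.01 and 9.11, against GFAP cortex tumors at 9.99, 10.58, 10.73 and 10.99 and SYN1 cortex tumors at 11.62, 10.24, 10.51 and 11.24. Normal hippocampus gave Slc16a1 levels of 9.73, 9.29, 9.44 and 9.44, the 7 GFAP tumors there 10.27 to 11.82 with a median of 10.88, NES tumors 11.30, 10.48, 10.07 and 10.05 and SVZ tumors 11.21, 10.49 and 10.65. Slc16a1 also showed no overlap in any group. It rose by 1.42 ± 0.30 (adjusted p = 0.00128), 1.75 ± 0.30 (adjusted p = 5.26e-05), 1.4998 ± 0.27 (adjusted p = 9.67e-05), 1.00 ± 0.30 (adjusted p = 0.0388) and 1.47 ± 0.29 (adjusted p = 0.000233) in GFAP cortex, SYN1 cortex, GFAP hippocampus, NES and SVZ tumors. Without NES tumor 1 the NES difference was 0.72 (adjusted p = 0.242), and the call was also lost without NES tumor 2 or any 1 normal hippocampus array, at 0.94 to 1.08 (adjusted p = 0.0542 to 0.107).

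Lactate dehydrogenase is built from subunits encoded by Ldha, which favours lactate formation, and Ldhb, the form of oxidative tissue. Ldhb stood at 11.51, 11.44, 11.44 and 11.15 in the normal cortex arrays, at 7.24, 10.77, 10.26 and 9.94 in GFAP cortex tumors and at 9.46, 9.93, 8.12 and 9.15 in SYN1 cortex tumors. In hippocampus, Ldhb stood at 11.11, 10.72, 10.85 and 10.81 in normal tissue, from 9.35 to 11.10 with a median of 9.97 in the 7 GFAP tumors and at 10.07, 11.16, 11.52 and 11.06 in NES tumors, and the SVZ tumors gave 9.04, 8.99 and 10.17. Cortex and SVZ tumors lay wholly below normal tissue, with GFAP cortex tumor 1 lowest by a wide margin, and NES tumors 2 to 4 stood between 11.06 and 11.52, near or above the highest normal hippocampus array. Ldhb fell by 1.83 ± 0.53 in GFAP cortex (adjusted p = 0.0102), 2.22 ± 0.53 in SYN1 cortex (adjusted p = 0.00127) and 1.73 ± 0.50 in SVZ tumors (adjusted p = 0.00747). Without GFAP cortex tumor 1 the first of these was -1.06 (adjusted p = 0.0661), and without SVZ tumor 2 the last was -1.52 (adjusted p = 0.0542). The GFAP hippocampus difference was -0.75 ± 0.47 (adjusted p = 0.203) and the NES difference 0.08 ± 0.53 (adjusted p = 0.951).

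In cortex, the Ldha level was 12.38, 12.20, 12.20 and 12.14 in normal tissue, 12.47, 11.93, 12.11 and 12.58 in GFAP tumors and 12.86, 12.64, 13.12 and 12.57 in SYN1 tumors. Normal hippocampus gave Ldha levels of 12.16, 11.88, 12.23 and 11.84, the 7 GFAP tumors there 12.28 to 13.43 with a median of 12.99, NES tumors 12.66, 12.23, 12.14 and 11.75 and SVZ tumors 12.71, 12.76 and 12.68. Ldha levels of SYN1 cortex, GFAP hippocampus and SVZ tumors exceeded normal tissue without overlap. Ldha rose by 0.57 ± 0.20 (adjusted p = 0.0287), 1.00 ± 0.18 (adjusted p = 0.000113) and 0.59 ± 0.20 (adjusted p = 0.019) in these, and differed by 0.04 in GFAP cortex and 0.17 in NES tumors. The SYN1 call was lost without SYN1 tumor 1, at 0.55 (adjusted p = 0.0615), tumor 3, at 0.46 (adjusted p = 0.107), or normal cortex 2, 3 or 4, at 0.54 to 0.56 (adjusted p = 0.0572 to 0.0672). The SVZ call was lost without SVZ tumor 1, at 0.59 (adjusted p = 0.057), or tumor 2, at 0.56 (adjusted p = 0.0708). Pdk1, the kinase that shuts pyruvate out of mitochondrial oxidation, was not called, with differences from -0.26 to 0.29; SYN1 tumor 3 was its highest array at 10.04.

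**Figure D3:**
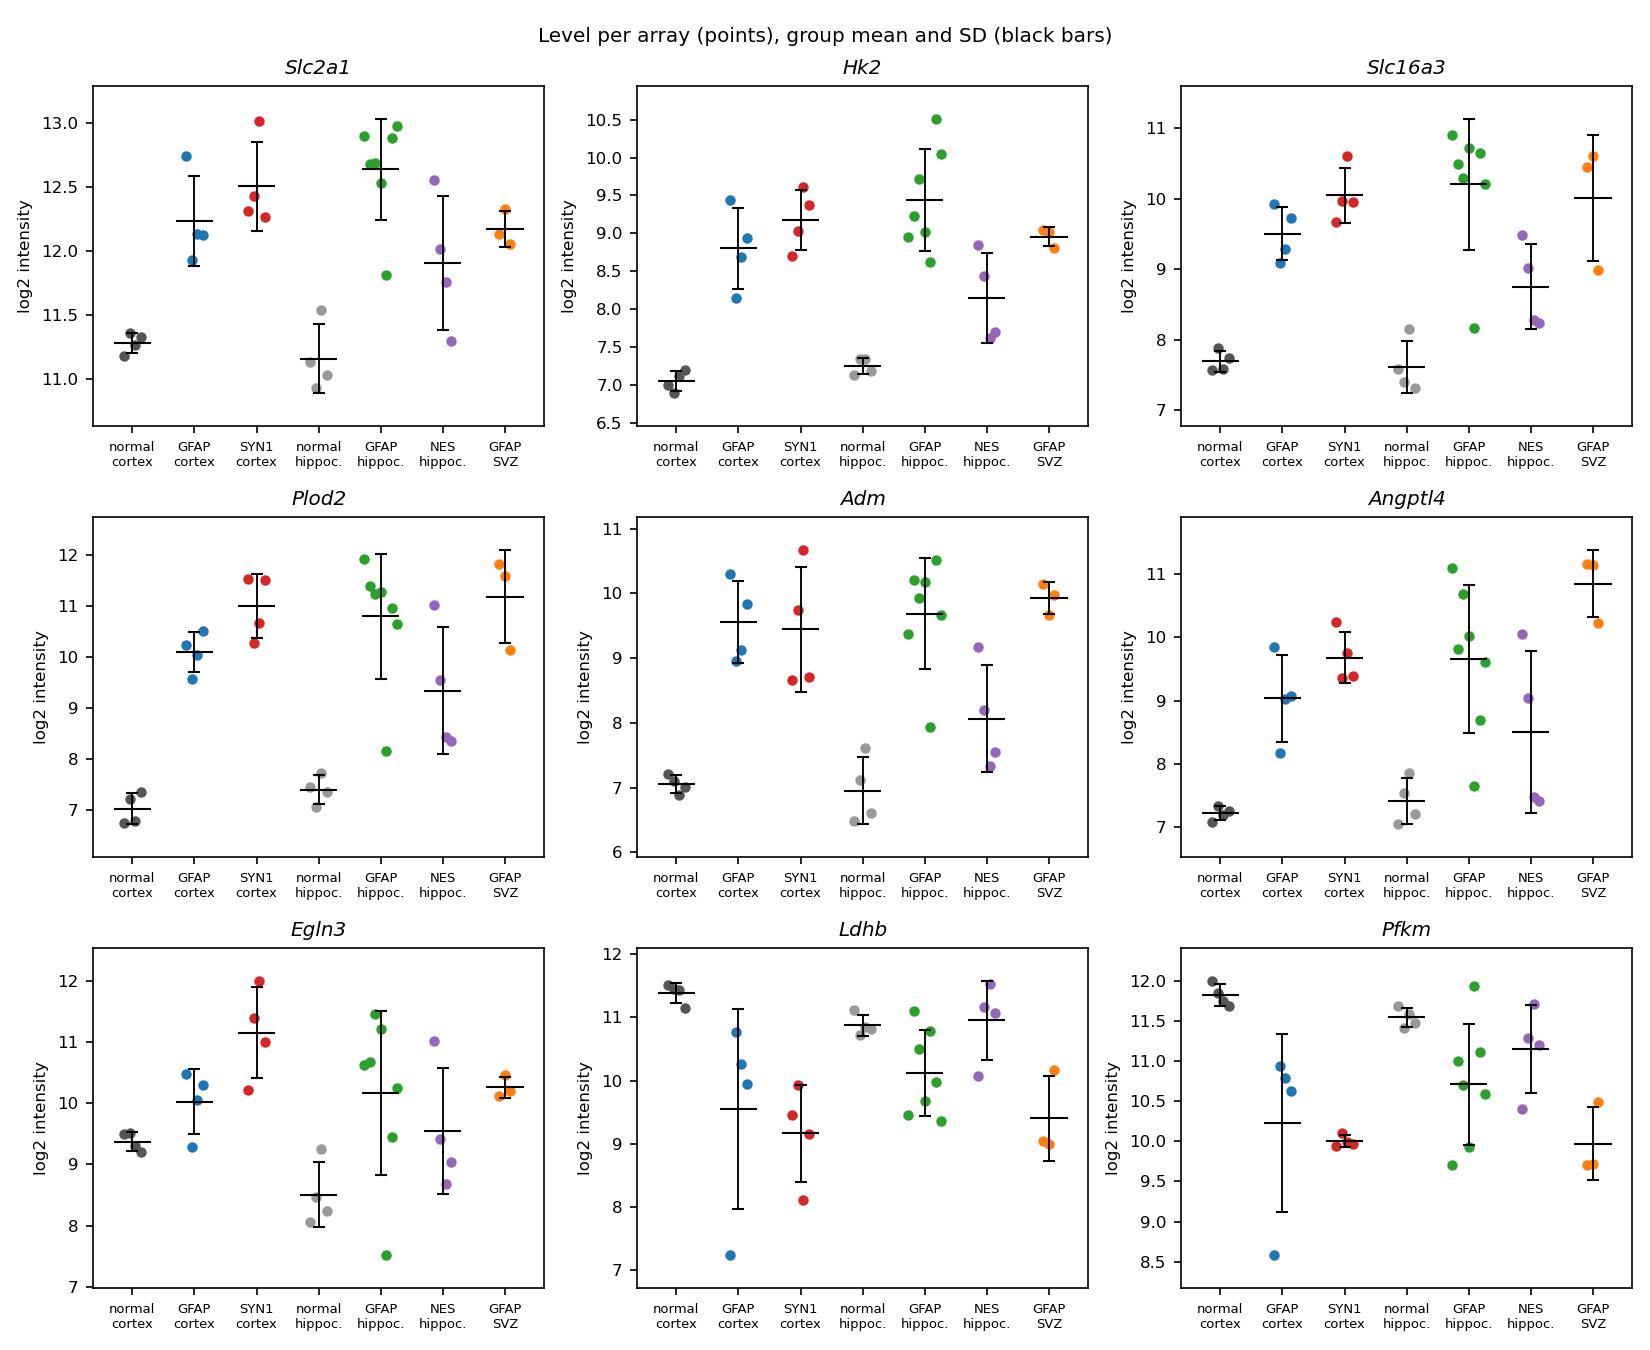
Log2 intensity of 9 genes (panels) in each array (points) of the 7 groups (horizontal axis), with group means and SD as black bars. Hk2, Slc16a3 and Plod2 lie above normal tissue in every tumor array, Ldhb and Pfkm lie below it in the cortex and SVZ tumors, and the lowest GFAP hippocampus point for Slc16a3 and Plod2 is tumor 5, at 8.17 and 8.16.

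Isoform pairs were compared as the difference of 2 genes within an array, which shows unequal change and not which isoform was more abundant. The exact two-sided permutation test over arrays was adjusted over 24 tests, and with 4 arrays against 4 it cannot give an unadjusted p below 0.0286. Ldha minus Ldhb lay at 0.76 to 0.99 in normal cortex, 1.15 to 5.23 in GFAP cortex and 2.71 to 5.002 in SYN1 cortex tumors. The gap widened by 1.87 and 2.79, each with exact adjusted p = 0.0403. In GFAP hippocampus tumors it widened by 1.75 (exact adjusted p = 0.0403), while in NES tumors the change was 0.09 (exact adjusted p = 0.943). Hk2 minus Hk1 shifted toward Hk2 by 1.56 in GFAP cortex, 1.80 in SYN1 cortex and 1.27 in GFAP hippocampus tumors, with exact adjusted p of 0.0403, 0.0403 and 0.0364, beside 0.53 in NES tumors (exact adjusted p = 0.289).

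Among the phosphofructokinase genes, Pfkm fell relative to Pfkp in the 4 groups tested, and relative to Pfkl in all of these but NES tumors. SVZ tumors were not in these tests, and the part of neuron content in these changes was not tested. Pfkp minus Pfkm changed by 0.92 in GFAP cortex, 1.30 in SYN1 cortex, 1.17 in GFAP hippocampus and 0.61 in NES tumors, each with exact adjusted p = 0.0403. Pfkl minus Pfkm changed by 1.46, 2.06 and 1.06 in the first 3 of these (exact adjusted p = 0.0403, 0.0403 and 0.0444) and by -0.06 in NES tumors (exact adjusted p = 0.775). Slc2a1 minus Slc2a3 changed by 1.74, 1.61, 1.37 and 0.91 in the 4 groups, with exact adjusted p between 0.0364 and 0.0403. For the lactate carriers, Slc16a3 minus Slc16a1 changed by 1.09 in GFAP hippocampus tumors (exact adjusted p = 0.0403) and by 0.39, 0.60 and 0.14 in the other groups, where the exact test did not pass (adjusted p = 0.392, 0.377 and 0.592).

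**Figure D4:**
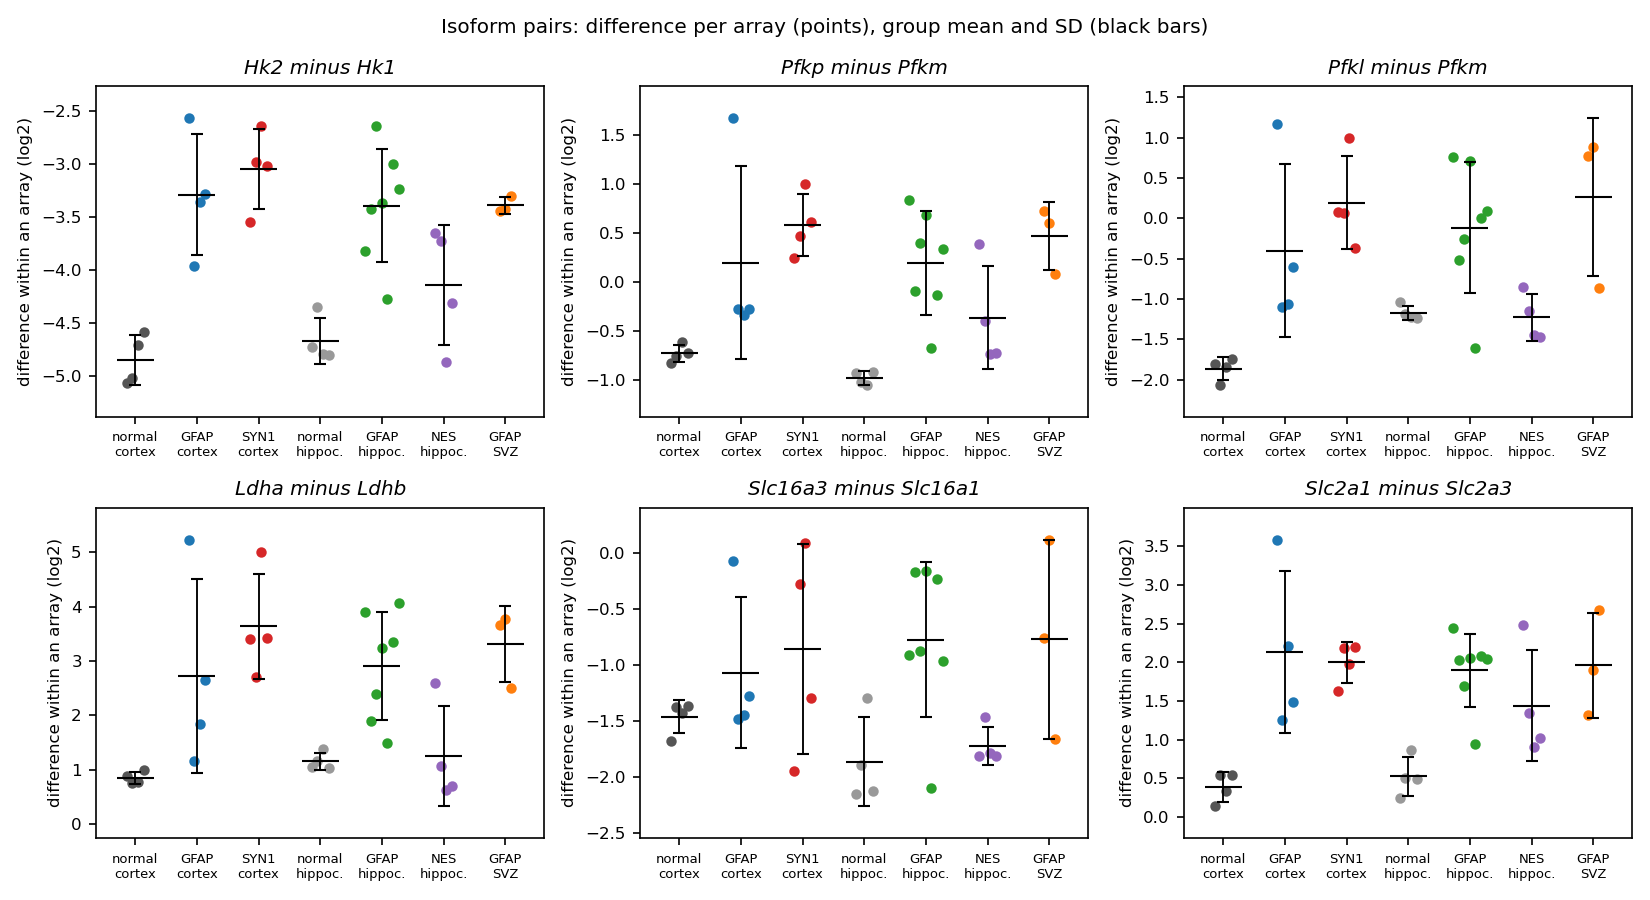
Difference in log2 intensity between 2 isoforms within an array (vertical axis) for 6 pairs (panels) in each array (points) of the 7 groups (horizontal axis), with group means and SD as black bars. Ldha minus Ldhb lies at 2.71 to 5.002 in SYN1 cortex tumors against 0.76 to 0.99 in normal cortex, while NES tumors span 0.62 to 2.60 around the 1.03 to 1.38 of normal hippocampus.

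Of the 9 oxygen-sensing and HIF-induced regulators, Hilpda rose in 4 groups, Egln3 and Ankrd37 in 2 each and Kdm3a in 2, while Mxi1 fell in 1. Egln3 encodes a prolyl hydroxylase that marks HIF for destruction and is itself induced by HIF. Egln3 levels in normal cortex were 9.49, 9.51, 9.30 and 9.20, against GFAP cortex tumors at 10.48, 9.28, 10.06 and 10.29 and SYN1 cortex tumors at 10.21, 11.40, 12.005 and 11.01. In hippocampus, Egln3 stood at 8.06, 8.47, 9.25 and 8.24 in normal tissue, from 7.51 to 11.46 with a median of 10.63 in the 7 GFAP tumors and at 11.02, 9.42, 8.69 and 9.04 in NES tumors, and the SVZ tumors gave 10.12, 10.46 and 10.21. SYN1 cortex tumors lay wholly above normal cortex, tumor 3 highest, while GFAP hippocampus tumor 5 lay below every normal hippocampus array. Egln3 rose by 1.78 ± 0.58 (adjusted p = 0.0157) in SYN1 cortex, or 3.44-fold, and by 1.66 ± 0.52 (adjusted p = 0.0114) in GFAP hippocampus tumors. Without SYN1 tumor 3 the SYN1 rise was no longer called (adjusted p = 0.0627), and GFAP hippocampus tumors 5 to 7 alone gave 0.56 (adjusted p = 0.414). The differences of 0.65 ± 0.58 (adjusted p = 0.46) in GFAP cortex, 1.03 ± 0.58 (adjusted p = 0.309) in NES and 1.32 ± 0.56 (adjusted p = 0.0635) in SVZ tumors did not pass. Egln1, the main HIF prolyl hydroxylase, was not called, with differences from -0.11 to 0.58. Without the 4 arrays that stand apart, Egln1 rose in GFAP hippocampus tumors by 0.78 (adjusted p = 0.000456). Tumors 5 to 7 alone gave -0.07 (adjusted p = 0.812).

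Hilpda encodes a lipid droplet protein that restrains fat breakdown. Hilpda stood at 6.87, 6.82, 6.97 and 6.62 in the normal cortex arrays, at 8.95, 7.11, 7.79 and 7.84 in GFAP cortex tumors and at 8.06, 8.76, 9.56 and 8.47 in SYN1 cortex tumors. In hippocampus, Hilpda stood at 6.74, 6.68, 6.97 and 6.62 in normal tissue, from 7.17 to 9.14 with a median of 8.55 in the 7 GFAP tumors and at 8.10, 7.69, 6.81 and 6.84 in NES tumors, and the SVZ tumors gave 7.72, 8.04 and 8.32. Only NES tumors overlapped normal tissue, with tumors 1 and 2 above it and tumors 3 and 4 within it. Hilpda rose by 1.10 ± 0.37 (adjusted p = 0.0268) in GFAP cortex, 1.89 ± 0.37 (adjusted p = 0.00019) in SYN1 cortex, 1.63 ± 0.33 (adjusted p = 0.000315) in GFAP hippocampus and 1.24 ± 0.35 (adjusted p = 0.0064) in SVZ tumors, and differed by 0.61 ± 0.37 (adjusted p = 0.355) in NES tumors. Without GFAP cortex tumor 1, which stood highest of its group, that difference was 0.76 (adjusted p = 0.135), and it was also lost without normal cortex 1, 2 or 4, at 1.12 (adjusted p = 0.0502), 1.10 (adjusted p = 0.0518) and 1.03 (adjusted p = 0.0665).

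Ankrd37 is an ankyrin repeat gene induced by HIF. In cortex, the Ankrd37 level was 7.20, 7.23, 7.24 and 7.15 in normal tissue, 8.78, 7.49, 7.52 and 7.51 in GFAP tumors and 7.55, 8.74, 9.54 and 7.78 in SYN1 tumors. Hippocampal Ankrd37 levels were 7.16, 7.22, 7.41 and 7.26 in normal tissue, 7.21 to 8.64 with a median of 8.44 in the 7 GFAP tumors and 7.87, 7.27, 7.23 and 7.10 in NES tumors, beside 7.83, 7.90 and 7.20 in SVZ tumors. SYN1 tumors 2 and 3 and GFAP cortex tumor 1 stood above the other cortex tumors. Ankrd37 rose by 1.20 ± 0.34 (adjusted p = 0.00576) in SYN1 cortex and 0.95 ± 0.30 (adjusted p = 0.0135) in GFAP hippocampus tumors; GFAP hippocampus tumors 5 to 7 alone gave 0.84 (adjusted p = 0.0842). Kdm3a, a histone demethylase induced by HIF, rose by 0.63 ± 0.14 (adjusted p = 0.000795) in GFAP hippocampus and 0.58 ± 0.15 (adjusted p = 0.00327) in SVZ tumors. Mxi1, which opposes Myc at shared DNA sites, fell in SVZ tumors by 0.50 ± 0.14 (adjusted p = 0.00667) and differed by -0.35 to 0.06 elsewhere.

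The stress genes Ndrg1, Ddit4 and Bnip3 were called in no group. Ndrg1 is a differentiation and stress gene, Ddit4 an inhibitor of the growth kinase complex mTORC1 and Bnip3 a receptor for the removal of mitochondria. Their differences ran from -0.28 to 0.23, from -0.27 to 0.40 and from -0.45 to 0.11. In SYN1 cortex tumors the Ndrg1 levels were 10.12, 10.71, 11.59 and 10.34, the Ddit4 levels 8.53, 9.77, 10.20 and 8.59 and the Bnip3 levels 10.27, 11.17, 11.84 and 10.62. For each of these 3 genes tumor 3 was the highest SYN1 array and tumor 2 the next, with tumors 1 and 4 below.

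The 2 membrane carbonic anhydrases, which catalyse the hydration of carbon dioxide at the cell surface, did not move together: Car9 rose in 1 tumor group and Car12 fell in 3. Car9 levels in normal cortex were 6.20, 6.12, 6.14 and 6.03, against GFAP cortex tumors at 8.52, 6.04, 7.49 and 6.71 and SYN1 cortex tumors at 7.08, 6.52, 6.72 and 7.16. Normal hippocampus gave Car9 levels of 6.32, 6.25, 6.28 and 6.23, the 7 GFAP tumors there 6.29 to 7.55 with a median of 6.86, NES tumors 7.59, 6.45, 6.63 and 6.29 and SVZ tumors 8.61, 7.94 and 6.43. Car9 was highest in SVZ tumors 1 and 2 and GFAP cortex tumor 1, and the remaining SVZ tumor stood just above the normal arrays. It rose in SVZ tumors by 1.46 ± 0.39 (adjusted p = 0.00386), a call lost without SVZ tumor 1 (0.99, adjusted p = 0.0837), and differed by 0.47 to 1.07 elsewhere. Car12 stood at 8.03, 7.59, 8.46 and 8.33 in the normal cortex arrays, at 7.81, 7.50, 8.48 and 7.25 in GFAP cortex tumors and at 7.93, 6.32, 6.71 and 6.99 in SYN1 cortex tumors. In hippocampus, Car12 stood at 9.94, 9.46, 9.70 and 9.55 in normal tissue, from 6.83 to 8.11 with a median of 7.18 in the 7 GFAP tumors and at 7.24, 8.21, 8.89 and 8.56 in NES tumors, and the SVZ tumors gave 8.16, 8.60 and 7.51. Every GFAP and NES hippocampus tumor lay below every normal hippocampus array. Car12 fell by 2.32 ± 0.31 in GFAP hippocampus (adjusted p = 3.38e-06), by 1.44 ± 0.36 in NES (adjusted p = 0.0102) and by 1.11 ± 0.36 in SYN1 cortex tumors (adjusted p = 0.0135). Without NES tumor 1 the NES value was -1.12 (adjusted p = 0.0789) and without SYN1 tumor 2 the SYN1 value was -0.89 (adjusted p = 0.0635). Normal hippocampus stood above normal cortex by 1.56 ± 0.36 (adjusted p = 0.0174), where 0.562% of all genes were higher. No other member was called between the normal tissues, and this call was lost without normal cortex 1 or 2 or normal hippocampus 1 or 3, at 1.39 to 1.55 (adjusted p = 0.0558 to 0.0983).

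All 5 collagen-modifying genes rose in GFAP cortex, SYN1 cortex and GFAP hippocampus tumors, 4 of 5 rose in SVZ tumors and 1 in NES tumors. Plod2 encodes the lysyl hydroxylase whose products form the stiffer collagen crosslinks. In cortex, the Plod2 level was 6.74, 7.22, 6.78 and 7.35 in normal tissue, 10.24, 9.58, 10.05 and 10.52 in GFAP tumors and 11.54, 10.29, 10.67 and 11.51 in SYN1 tumors. Hippocampal Plod2 levels were 7.45, 7.05, 7.73 and 7.35 in normal tissue, 8.16 to 11.92 with a median of 11.24 in the 7 GFAP tumors and 11.02, 9.55, 8.43 and 8.35 in NES tumors, beside 11.84, 11.59 and 10.14 in SVZ tumors. No tumor array overlapped normal tissue, and GFAP hippocampus tumor 5 and NES tumors 3 and 4 were nearest to it. Plod2 rose by 3.07 ± 0.58 (adjusted p = 0.000465) in GFAP cortex, 3.98 ± 0.58 (adjusted p = 7.53e-06) in SYN1 cortex, 3.41 ± 0.52 (adjusted p = 1.32e-05) in GFAP hippocampus, 1.94 ± 0.58 (adjusted p = 0.0353) in NES and 3.98 ± 0.56 (adjusted p = 5.90e-06) in SVZ tumors. These are 8.42, 15.8, 10.6, 3.85 and 15.8-fold, the largest of any member in each comparison. The NES call was lost without NES tumor 1, at 1.38 (adjusted p = 0.231), or tumor 2, at 1.87 (adjusted p = 0.0876), and without any 1 normal hippocampus array, at 1.83 to 2.05 (adjusted p = 0.0564 to 0.0983).

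Lox is the secreted oxidase that crosslinks collagen and elastin. Lox levels in normal cortex were 6.31, 6.14, 6.19 and 6.05, against GFAP cortex tumors at 11.41, 7.24, 8.37 and 8.82 and SYN1 cortex tumors at 7.69, 8.66, 9.57 and 8.48. In hippocampus, Lox stood at 6.05, 6.51, 6.53 and 6.02 in normal tissue, from 6.81 to 9.11 with a median of 7.57 in the 7 GFAP tumors and at 8.11, 7.53, 6.43 and 6.23 in NES tumors, and the SVZ tumors gave 7.11, 8.02 and 7.01. GFAP cortex tumor 1 held the highest Lox level of all arrays, and only NES tumors overlapped normal tissue. Lox rose by 2.78 ± 0.61 (adjusted p = 0.00147) in GFAP cortex, 2.42 ± 0.61 (adjusted p = 0.00211) in SYN1 cortex and 1.496 ± 0.54 (adjusted p = 0.0275) in GFAP hippocampus tumors, and differed by 0.80 ± 0.61 (adjusted p = 0.473) in NES and 1.15 ± 0.58 (adjusted p = 0.127) in SVZ tumors. In hippocampus the call was lost without GFAP tumor 2 (1.27, adjusted p = 0.0577), GFAP tumor 4 (1.37, adjusted p = 0.0507), or normal arrays 1 (1.42, adjusted p = 0.0686) and 4 (1.41, adjusted p = 0.0705).

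P4ha1 and P4ha2 encode catalytic subunits of the prolyl hydroxylase that stabilises the collagen helix. P4ha1 stood at 9.57, 9.47, 9.54 and 9.49 in the normal cortex arrays, at 10.40, 10.32, 10.34 and 11.02 in GFAP cortex tumors and at 11.17, 10.54, 11.33 and 10.88 in SYN1 cortex tumors. In hippocampus, P4ha1 stood at 9.80, 9.36, 9.80 and 9.45 in normal tissue, from 9.42 to 11.08 with a median of 10.79 in the 7 GFAP tumors and at 10.64, 10.45, 9.97 and 9.78 in NES tumors, and the SVZ tumors gave 10.70, 10.62 and 10.72. GFAP hippocampus tumor 5 was the only array of the GFAP and SYN1 tumors within the normal range. P4ha1 rose by 1.00 ± 0.26 (adjusted p = 0.00553), 1.47 ± 0.26 (adjusted p = 7.12e-05), 0.96 ± 0.23 (adjusted p = 0.00177) and 1.12 ± 0.25 (adjusted p = 0.000797) in GFAP cortex, SYN1 cortex, GFAP hippocampus and SVZ tumors, and differed by 0.61 in NES tumors. In cortex, the P4ha2 level was 7.42, 7.28, 7.56 and 7.40 in normal tissue, 9.27, 7.70, 8.19 and 8.66 in GFAP tumors and 8.91, 8.91, 9.52 and 9.09 in SYN1 tumors. Normal hippocampus gave P4ha2 levels of 7.40, 7.35, 7.66 and 7.42, the 7 GFAP tumors there 7.11 to 9.13 with a median of 8.63, NES tumors 8.19, 7.83, 7.28 and 7.44 and SVZ tumors 8.30, 8.56 and 8.38. Cortex and SVZ tumors did not overlap normal tissue, and GFAP hippocampus tumors did. P4ha2 rose by 1.04 ± 0.32 (adjusted p = 0.0161), 1.69 ± 0.32 (adjusted p = 0.000134), 0.84 ± 0.28 (adjusted p = 0.0197) and 0.98 ± 0.31 (adjusted p = 0.0127) in the same groups, beside 0.23 in NES tumors. Calls were lost without GFAP cortex tumor 1 (0.77, adjusted p = 0.0878), normal hippocampus 2 (0.81, adjusted p = 0.0523) and SVZ tumor 2 (0.91, adjusted p = 0.0627).

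Plod1 levels in normal cortex were 8.89, 8.93, 8.93 and 8.90, against GFAP cortex tumors at 9.92, 9.10, 10.23 and 9.79 and SYN1 cortex tumors at 10.41, 9.99, 10.30 and 10.59. Hippocampal Plod1 levels were 9.31, 9.02, 9.004 and 9.02 in normal tissue, 8.84 to 10.34 with a median of 10.14 in the 7 GFAP tumors and 10.33, 10.03, 9.64 and 9.46 in NES tumors, beside 9.52, 10.02 and 10.06 in SVZ tumors. Plod1, a second lysyl hydroxylase, lay above normal cortex in every cortex tumor, and GFAP hippocampus tumor 5 lay below normal hippocampus. Plod1 rose by 0.85 ± 0.27 (adjusted p = 0.0208), 1.41 ± 0.27 (adjusted p = 0.000167), 0.71 ± 0.24 (adjusted p = 0.0203) and 0.87 ± 0.26 (adjusted p = 0.00937) in GFAP cortex, SYN1 cortex, GFAP hippocampus and SVZ tumors, beside 0.77 ± 0.27 (adjusted p = 0.0792) in NES tumors. The GFAP cortex call was lost without tumor 1 (0.79, adjusted p = 0.0578) or 3 (0.69, adjusted p = 0.0845), the SVZ call without tumor 2 (0.79, adjusted p = 0.0544) or 3 (0.77, adjusted p = 0.0554), and the hippocampus call without normal array 2, 3 or 4 at 0.68 to 0.69 (adjusted p = 0.0513 to 0.0519). With GFAP hippocampus tumors 5 to 7 only, the Plod1, P4ha1, P4ha2 and Lox differences were 0.11, 0.45, 0.46 and 0.94, and none passed. Without GFAP cortex tumor 1 and GFAP hippocampus tumors 5 to 7, members higher numbered 13 in GFAP cortex and 24 in GFAP hippocampus. In hippocampus Egln1 and Car9 then rose (Car9 0.96, adjusted p = 0.0271) and Pfkm fell. In cortex Gbe1 rose (0.80, adjusted p = 0.0207), Pgam1 fell (-0.51, adjusted p = 0.015), and Slc2a3 and Hilpda were no longer called.

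The 3 secreted factors act on vessels and lipid supply. Adm encodes adrenomedullin, a vasodilator peptide. Adm stood at 7.22, 7.10, 6.89 and 7.02 in the normal cortex arrays, at 10.30, 8.96, 9.13 and 9.84 in GFAP cortex tumors and at 8.66, 9.74, 10.67 and 8.70 in SYN1 cortex tumors. In hippocampus, Adm stood at 6.48, 7.11, 7.62 and 6.61 in normal tissue, from 7.93 to 10.52 with a median of 9.94 in the 7 GFAP tumors and at 9.17, 8.20, 7.34 and 7.55 in NES tumors, and the SVZ tumors gave 10.14, 9.67 and 9.97. Only NES tumors 3 and 4 fell within the normal hippocampal range. Adm rose by 2.50 ± 0.47 (adjusted p = 0.000425) in GFAP cortex, 2.39 ± 0.47 (adjusted p = 0.000204) in SYN1 cortex, 2.73 ± 0.42 (adjusted p = 1.43e-05) in GFAP hippocampus and 2.92 ± 0.45 (adjusted p = 1.62e-05) in SVZ tumors, from 5.23 to 7.58-fold. The NES difference was 1.11 ± 0.47 (adjusted p = 0.158).

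Angptl4 is a secreted inhibitor of lipoprotein lipase. In cortex, the Angptl4 level was 7.08, 7.34, 7.20 and 7.25 in normal tissue, 9.84, 8.18, 9.03 and 9.08 in GFAP tumors and 10.23, 9.35, 9.74 and 9.39 in SYN1 tumors. Hippocampal Angptl4 levels were 7.05, 7.54, 7.86 and 7.21 in normal tissue, 7.66 to 11.09 with a median of 9.82 in the 7 GFAP tumors and 10.05, 9.05, 7.49 and 7.42 in NES tumors, beside 11.16, 11.15 and 10.23 in SVZ tumors. SVZ tumors 1 and 2 and GFAP hippocampus tumor 1 stood highest, and GFAP hippocampus tumor 5 and NES tumors 3 and 4 overlapped normal tissue. Angptl4 rose by 1.82 ± 0.56 (adjusted p = 0.0153), 2.46 ± 0.56 (adjusted p = 0.000819), 2.24 ± 0.49 (adjusted p = 0.000761) and 3.53 ± 0.53 (adjusted p = 1.30e-05) in GFAP cortex, SYN1 cortex, GFAP hippocampus and SVZ tumors, and differed by 1.09 ± 0.56 (adjusted p = 0.256) in NES tumors. Without GFAP cortex tumor 1 the cortex value was 1.55 (adjusted p = 0.0644), and GFAP hippocampus tumors 5 to 7 alone gave 1.23 (adjusted p = 0.0528).

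Vegfa encodes the vascular growth factor. Vegfa levels in normal cortex were 9.96, 9.86, 9.79 and 9.86, against GFAP cortex tumors at 10.92, 9.75, 10.14 and 10.81 and SYN1 cortex tumors at 10.72, 11.29, 11.68 and 10.84. Normal hippocampus gave Vegfa levels of 9.56, 9.18, 9.79 and 9.50, the 7 GFAP tumors there 8.66 to 11.35 with a median of 10.67, NES tumors 10.81, 9.96, 9.84 and 9.68 and SVZ tumors 10.96, 11.19 and 10.03. GFAP hippocampus tumor 5 was below normal tissue while tumors 1 to 4 were the highest of their group. Vegfa rose by 1.27 ± 0.40 (adjusted p = 0.0126) in SYN1 cortex, 0.94 ± 0.35 (adjusted p = 0.0351) in GFAP hippocampus and 1.04 ± 0.38 (adjusted p = 0.033) in SVZ tumors, and differed by 0.54 in GFAP cortex and 0.57 in NES tumors. The SYN1 call was lost without tumor 3 (1.09, adjusted p = 0.0506). In SVZ the call was lost without tumor 1 (0.93, adjusted p = 0.13), tumor 2 (0.81, adjusted p = 0.195) or normal hippocampus 2 (0.99, adjusted p = 0.0537). In hippocampus it was lost without any 1 of GFAP tumors 1 to 4 or normal arrays 1, 2 and 4, at 0.79 to 0.96 (adjusted p = 0.0559 to 0.105), and GFAP tumors 5 to 7 alone gave 0.17 (adjusted p = 0.736).

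NES tumors and GFAP tumors of the hippocampus were compared directly. No member was higher in NES tumors and 9 were lower, where 6.12% of all genes were higher and 2.09% lower. Groups did not overlap for 0 members above and 3 below (Pfkl, Pgk1 and Pkm), against 0.983% and 0.717% of all genes. The 9 were the glycolytic genes Hk1, Hk2, Pfkl, Pgk1, Pkm and Ldha, the transporters Slc2a1 and Slc16a3, and Adm. NES tumors stood below GFAP tumors by 1.62 ± 0.42 for Adm (adjusted p = 0.0246), 1.45 ± 0.38 for Slc16a3 (adjusted p = 0.0253) and 1.29 ± 0.29 for Hk2 (adjusted p = 0.0162). For Pkm, Pgk1 and Ldha the gap was 0.97 ± 0.18, 0.97 ± 0.20 and 0.83 ± 0.18 (adjusted p = 0.0111, 0.0132 and 0.016). For Slc2a1, Pfkl and Hk1 it was 0.73 ± 0.21, 0.68 ± 0.20 and 0.55 ± 0.17 (adjusted p = 0.0361, 0.0417 and 0.0425). NES and GFAP arrays did not overlap for Pkm, Pgk1 and Pfkl. The neuron marker list ran from 10.60 to 11.79 in NES tumors and from 9.46 to 11.09 in GFAP tumors, and its part in these differences was not tested.

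These counts moved with the arrays used. With GFAP hippocampus tumors 1 to 4 only, 16 members and 7.05% of all genes were lower in NES tumors, and without the 4 arrays that stand apart 18 members were lower and 1 higher, beside 10.8% and 10.4% of all genes. With tumors 1 to 4 only, Hk1 was -0.25 and Pfkl -0.59 and neither was called (adjusted p = 0.197 and 0.0826). Quantile normalization gave Hk1 -0.20 and Slc2a1 -0.53, also not called (adjusted p = 0.385 and 0.0631). With the probe sets of each gene averaged, Hk1 was -0.32 and not called (adjusted p = 0.0519). With only the arrays of both groups in the fit, 0 members and 0% of all genes passed. Leaving out 1 array at a time gave 0 members lower without NES tumor 3 or NES tumor 4, 4 without NES tumor 2 or GFAP hippocampus tumor 6 or 7, and 15 without GFAP hippocampus tumor 5. The shares of all genes in those fits are not set beside these counts. Within NES tumors, tumor 1 held the highest level of 24 of 38 members and tumor 4 the lowest of 26, and the levels of tumors 3 and 4 were the nearest to normal for Slc2a1, Plod2 and Adm. Against normal hippocampus, the 3 members higher became 0 without NES tumor 1 or 2 or normal hippocampus 1, 2 or 4, 1 without normal hippocampus 3 and 5 without NES tumor 4. They became 11 without the 4 arrays that stand apart, 7 with only the compared arrays and 5 with quantile normalization, where 11.2%, 10.2% and 6.3% of all genes were higher.

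Among GFAP tumors, 6 members were higher in hippocampus than in cortex and 0 lower, where 2.24% and 0.441% of all genes were called. All 6 are enzymes of the glycolytic chain or its end: Pgk1 by 1.13 ± 0.20 (adjusted p = 0.00549), Pkm by 1.03 ± 0.18 (adjusted p = 0.00549), Pfkl by 0.76 ± 0.20 (adjusted p = 0.0414), Ldha by 0.75 ± 0.18 (adjusted p = 0.0254), Hk1 by 0.75 ± 0.17 (adjusted p = 0.018) and Tpi1 by 0.53 ± 0.13 (adjusted p = 0.0318). Regional tumors did not overlap for Pgk1, Pkm, Hk1 and Pfkl, each higher in hippocampus, against 1.23% of all genes in that direction and 0.401% in the other. Samples with the same replicate number deviated together between these groups, though the labels do not say that they share an animal or batch. With the replicate block, which uses tumors 1 to 4 of each, 10 members and 9% of all genes were higher: Pfkl was no longer called (0.68, adjusted p = 0.0693), and Pgam1 (0.69, adjusted p = 0.0123), Slc16a3 (1.09, adjusted p = 0.033), Egln1 (0.61, adjusted p = 0.0273), Plod2 (1.36, adjusted p = 0.0356) and Angptl4 (1.37, adjusted p = 0.0356) were added. Quantile normalization and a fit of only these arrays each left 0 members, and in the fit of only these arrays 0% of all genes were called. After quantile normalization Pfkl was 0.64, Pgk1 0.55 and Pkm 0.40 (adjusted p = 0.144, 0.126 and 0.184), while Ldha, Hk1 and Tpi1 were 0.19, 0.14 and 0.11 (adjusted p = 0.495, 0.679 and 0.594). By mean level, Pfkl stood at percentile 91.4 of all genes and the rest of the 6 at 99.5 to 99.7. The part of unequal array spread at such levels was not tested beyond this normalization. The count was 2 without GFAP cortex tumor 3 and 3 without GFAP cortex tumor 2 or GFAP hippocampus tumor 6 or 7.

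The interaction asks whether the tumor difference itself was unlike in hippocampus and cortex. It passed for 3 members, where 0.341% of all genes had a larger and 0.497% a smaller difference in hippocampus. The Pfkp difference was 0.34 in hippocampus and -0.66 in cortex, an interaction of 1.00 ± 0.21 (adjusted p = 0.0131). That of Pkm was 1.04 and -0.15, an interaction of 1.19 ± 0.28 (adjusted p = 0.0312). Car12 gave -2.32 and -0.34, an interaction of -1.98 ± 0.47 (adjusted p = 0.0384), with normal hippocampus starting above normal cortex. Pgk1, Ldha, Hk1 and Tpi1 had interactions of 1.11 ± 0.30, 0.96 ± 0.27, 0.73 ± 0.25 and 0.63 ± 0.20 that did not pass (adjusted p = 0.0884, 0.109, 0.221 and 0.16). With the replicate block Pfkp and Pkm still passed, at 0.88 and 0.87 (adjusted p = 0.0194 and 0.00839), and so did Pgk1 and Ldha, at 0.92 and 0.97 (adjusted p = 0.0463 and 0.02). Car12 was then -1.81 and no longer called (adjusted p = 0.067), and 2.12% of all genes had a larger and 0.602% a smaller difference in hippocampus. Quantile normalization left no member past the threshold, and 5 passed upward with each array centred on its median. With the probe sets of each gene averaged, Pkm was 1.21 and not called (adjusted p = 0.101). Pkm was lost without 1 of 10 arrays in turn, all normal cortex arrays and GFAP cortex tumors 2 to 4 among them, at 1.10 to 1.22 (adjusted p = 0.0514 to 0.081). Car12 was lost without 1 of 12, all normal hippocampus arrays among them, at -2.05 to -1.74 (adjusted p = 0.0519 to 0.121). Without GFAP hippocampus tumor 5, 4 members passed upward.

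No member differed between SYN1 and GFAP cortex tumors in limma, where 0.15% of all genes were higher and 0.0251% lower in SYN1; 9 of 38 members had an unadjusted p under 0.05, as did 14.7% of all genes. The smallest adjusted p was 0.137 for Pgk1, higher in SYN1 by 0.79 ± 0.23. Pgk1 was also the 1 member whose arrays did not overlap, against 6.56% of all genes above and 1.02% below. Without GFAP cortex tumor 1 and the 3 hippocampal arrays, 8 members were higher in SYN1 tumors, as were 5.55% of all genes. Likewise no member passed in limma between SVZ and cortex GFAP tumors, where 0.00502% of all genes were higher and 0% lower, or between SVZ and hippocampus GFAP tumors, where 0.15% were higher and 0.166% lower. At an unadjusted p under 0.05 there were 4 of 38 members against cortex, where 10.5% of all genes had such a p, and 7 against hippocampus, where 15.2% did, so both counts lay near that of all genes. The largest SVZ differences were in Angptl4, 1.81 ± 0.60 (adjusted p = 0.355) against cortex and 1.19 ± 0.54 (adjusted p = 0.3) against hippocampus. SVZ tumors lay wholly above cortex tumors for Pgk1, Pgam1, Ldha and Angptl4 and below them for Mxi1, where 6.74% and 1.76% of all genes did so. They lay wholly below hippocampus tumors for Pgk1 and Pkm and above them for 0 members, against 1.54% and 2.72% of all genes.

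Between the 2 normal tissues, Car12 was the 1 member called, higher in hippocampus, while 0.727% of all genes were lower there. Hippocampus arrays lay wholly above cortex arrays for 5 members (Car12, Pfkl, Slc16a1, Car9 and Plod1) and wholly below for 8, among them Pfkp, Ldhb, Bnip3 and Vegfa, where 6.3% and 12% of all genes did so. Ttr, Otx2, Folr1, Ccdc153 and Foxj1, markers of ependyma and choroid plexus, stood higher in normal hippocampus by 2.42, 0.66, 0.48, 0.44 and 0.07. None of them was called, and their part in the Car12 difference was not tested.

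Single tumors often held the extremes of the set. SYN1 tumor 3 held the highest level of all 22 tumor arrays for 16 of 38 members, and GFAP hippocampus tumor 5 the lowest for 10 and the lowest of its own group for 25. GFAP cortex tumor 1 was at the same time the highest of its group for 14 members and the lowest for 13, the latter including Ldhb, Pfkm and Slc2a3. The neuron marker list averaged 8.34 in GFAP cortex tumor 1 and 8.90 in SYN1 tumor 3, the lowest of their groups, and 11.09 in GFAP hippocampus tumor 5, the highest of its group. Its part in the members' levels was not tested.

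**Figure D5:**
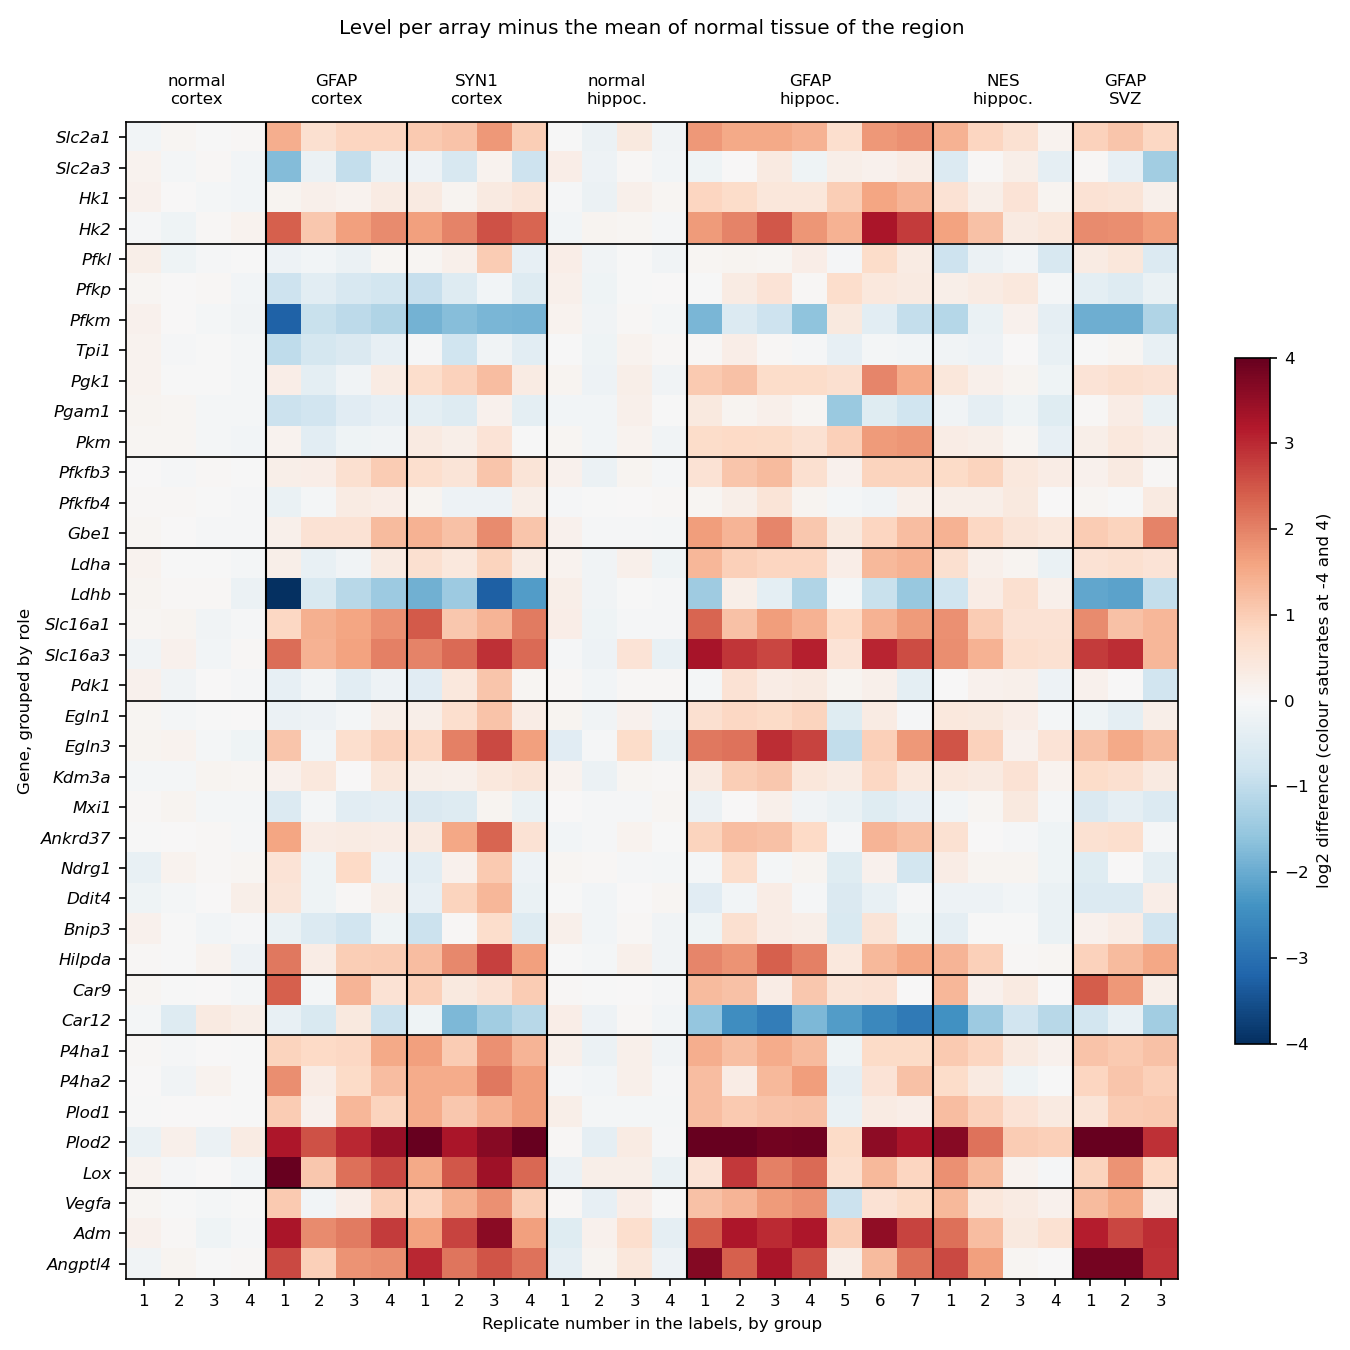
Level of the 38 genes (rows, grouped by role) in each of the 30 arrays (columns, numbered as in the labels) minus the mean of normal tissue of the region, on the log2 scale; SVZ tumors are set against the mean of both normal tissues. GFAP hippocampus tumor 5 is the lowest tumor of its group for Slc16a3, Plod2 and Vegfa, NES tumors 3 and 4 are paler than NES tumors 1 and 2, and SYN1 tumor 3 is the reddest for Hilpda and Adm.

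Other genes of these pathways were read from 3 lists of genes named for their role. Among 25 other glycolysis, glycogen and pyruvate entry genes, falls outnumbered rises in the 4 comparisons other than NES, in which falls also outnumbered rises over all genes: 3 rose and 12 fell in GFAP cortex, 4 and 16 in SYN1 cortex, 5 and 10 in GFAP hippocampus, 2 and 2 in NES and 4 and 13 in SVZ tumors. Median differences of the list were -0.58, -0.67, -0.47, -0.17 and -0.56 in that order. Eno2, the neuronal enolase, differed by -2.44, -2.81, -1.83, -0.75 and -2.58 in the 5 groups, and fell in all but NES tumors. Aldoc, the aldolase of astrocytes and Purkinje cells, differed by -1.92, -2.40, -0.77, -0.40 and -2.03 and fell in the cortex and SVZ tumors. Slc16a7, a lactate and pyruvate carrier of neurons, gave -1.76, -2.62, -1.97, -0.73 and -2.41, and Pdk2, a pyruvate dehydrogenase kinase, gave -1.51, -2.11, -1.83, -0.67 and -1.90; both fell in all but NES tumors. Pdp1, the phosphatase that opposes such kinases, gave -1.90, -1.76, -0.25, 0.33 and -0.997 and fell in cortex and SVZ tumors. Pgm2, a phosphopentomutase, rose in all 5 by 1.64, 2.46, 1.98, 1.60 and 2.53. Pygl, the liver form of glycogen phosphorylase, also rose in all 5, by 0.92, 1.61, 1.29, 0.83 and 0.77, while the muscle form Pygm gave -0.98, -1.87, -0.78, -0.16 and -1.37 and fell in all but NES tumors. Mpc1, a subunit of the mitochondrial pyruvate carrier, gave -1.26, -1.56, -1.34, -0.13 and -0.84 and fell in GFAP cortex, SYN1 cortex and GFAP hippocampus tumors. Gapdh and Eno1 had no probe set naming them alone.

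Among 12 HIF factors and oxygen sensors, 1 rose and 4 fell in GFAP cortex, 1 and 2 in SYN1 cortex, 1 and 4 in GFAP hippocampus, 0 and 0 in NES and 1 and 3 in SVZ tumors. The riser was each time Hif1a, the oxygen-regulated alpha subunit, with differences of 0.90, 1.48, 0.91, 0.82 and 1.14, of which the NES value did not pass. Epas1, the alpha subunit prominent in vessels, gave -0.48, -1.04, -0.79, -0.15 and -0.87 and fell in SYN1 cortex, GFAP hippocampus and SVZ tumors. Arnt2, the dimer partner typical of neurons, gave -2.02, -2.60, -1.57, -0.26 and -2.23 and fell in all but NES tumors. Among 27 other hypoxia-inducible genes, 5 rose and 4 fell in GFAP cortex, 9 and 5 in SYN1 cortex, 7 and 5 in GFAP hippocampus, 2 and 1 in NES and 6 and 7 in SVZ tumors. The medians were -0.29, -0.18, -0.28, -0.13 and -0.07 for the former list and -0.05, 0.26, 0.03, 0.10 and 0.03 for the latter. Hmox1, the heme oxygenase, rose in all 5 by 3.28, 3.74, 3.93, 2.80 and 3.68. Cxcr4, a chemokine receptor, gave 1.92, 2.19, 2.22, 1.04 and 1.97 and Tmem45a, a membrane protein gene, 1.99, 3.11, 1.90, 0.52 and 1.60; both passed in all but NES tumors. Wsb1, a ubiquitin ligase adaptor, rose in all 5 by 1.13, 1.52, 1.56, 0.99 and 1.41. Pgf, a placental relative of Vegfa, gave 0.43, 1.83, 1.61, 0.45 and 0.17 and rose in SYN1 cortex and GFAP hippocampus tumors. Ppp1r3c, a glycogen-targeting phosphatase subunit, gave -1.12, -1.80, -0.94, -0.31 and -1.88 and fell in all but NES tumors. Stc1, a secreted glycoprotein, gave 1.04, 1.54, 0.58, 0.52 and 1.60 and rose in SYN1 cortex and SVZ tumors, while Ak4, a mitochondrial adenylate kinase, gave -1.05, -0.30, -1.86, -1.17 and -1.55 and fell in GFAP hippocampus and SVZ tumors.

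Markers of other cell types moved in the same comparisons. Of 10 measured neuron markers, 7 fell in GFAP cortex, 8 in SYN1 cortex, 7 in GFAP hippocampus, 0 in NES and 8 in SVZ tumors. The mean level of the neuron list ran from 11.96 to 12.16 in normal cortex and 11.66 to 11.94 in normal hippocampus. It ran from 8.34 to 11.37 in GFAP cortex, 8.90 to 9.91 in SYN1 cortex, 9.46 to 11.09 in GFAP hippocampus, 10.60 to 11.79 in NES and 9.28 to 10.42 in SVZ tumors. Eno2 and Arnt2 fell in the same 4 groups as these markers, Ldhb and Pfkm in the cortex and SVZ groups, and Slc2a3 in GFAP cortex tumors alone. The part of neuron content in these falls was not tested. Of 10 microglia and macrophage markers, 6 rose in each of the 5 comparisons, the list ranging from 7.86 to 8.20 over the 8 normal arrays and from 8.43 to 10.04 over the 22 tumors. Of 7 mural cell and fibroblast markers, 5 rose in GFAP cortex, 2 in SYN1 cortex, 2 in GFAP hippocampus, 0 in NES and 1 in SVZ tumors. Its list level was 10.91 in GFAP cortex tumor 1, the array with the highest Lox. Of 7 endothelial markers, 2, 5, 5, 1 and 5 rose in GFAP cortex, SYN1 cortex, GFAP hippocampus, NES and SVZ tumors. Of 6 oligodendrocyte markers, 5, 6, 2, 0 and 5 fell. Of 9 astrocyte markers, 1, 4, 1, 0 and 5 fell, and 1 rose in GFAP hippocampus tumors. Of 5 oligodendrocyte precursor markers, 1 rose in GFAP hippocampus and 2 fell in SVZ tumors. All 4 measured cycling-cell markers rose in each comparison. The part of these cells in the rises was not tested. Region markers separated the normal tissues as labelled, the cortex list at 10.57 to 10.90 in normal cortex against 8.85 to 9.02 in normal hippocampus, and the hippocampus list at 9.16 to 9.62 in normal hippocampus against 7.49 to 7.69 in normal cortex.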

How the data were processed

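RNA from 30 tumor and normal brain samples in 7 groups was hybridised to Affymetrix Mouse Gene 1.0 ST arrays. The authors deposited 1 log2 signal per probe set and array, with no counts, so precision is limited by the number of arrays. Affymetrix Power Tools, MAS5 and RMA are listed, with neither role nor version, per the submitters' processing notes. The arrays do not share 1 distribution, and whether they were normalized to each other is not given in the sources used here.

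Of 35556 probe sets, 21789 carried a single gene symbol in GEO's platform annotation, 1621 several and 12146 none, and only the first were used. Symbols of 21698 matched RefSeq. The probe set with the highest mean stood for each of 999 genes with several, which gave 19938 genes. A limma (version 3.58.1, R 4.3.3) model with 1 mean per group over all 30 arrays gave 12 comparisons, with Benjamini-Hochberg adjustment over all genes and a threshold of 0.05. In data simulated for GFAP cortex against normal cortex over 19938 genes, 74% of genes changed by 1 log2 unit and 95% of those changed by 2 were called, with 8 unchanged genes called.

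Members were described by role. Levels were given for every array where a member passed with a difference of at least 1, or belonged to an isoform pair. Other pathway genes were named where they passed with a difference of at least 1.5 or as HIF factors. The members and lists were chosen with earlier results of these data known. Isoform pairs used an exact two-sided permutation test. Alternatives were median centring, quantile normalization, dropping genes in the lowest 30% by mean level, averaging all probe sets of one gene, limma with trended and robust variance, only the arrays compared, a replicate block, leaving out the arrays that stand apart, and leaving out each array in turn.

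Replicate numbers are shared between groups in the labels, which do not say that they mark a shared animal or batch. Same-numbered samples had deviations that correlated from -0.394 to 0.565 over 10 comparisons. All correlations were over 0.1 only for GFAP tumors of hippocampus against cortex, so the numbers were taken to pair the samples there alone.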

Additional observations from a re-analysis of the deposited data

Results flagged for a closer look

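In 11 of 228 tests of a member within a group of 4 or 7 arrays, 1 array lay further from the others than Dixon's 95% critical value allows, and chance alone gives about 1 in 20. GFAP hippocampus tumor 5 accounted for 5 of them, each time as the lowest of 7 arrays. It stood at 11.8 for the glucose transporter Slc2a1, where the others ran from 12.53 to 12.97, and at 8.17 for the lactate exporter Slc16a3, where they ran from 10.21 to 10.90. For Ankrd37 it stood at 7.21 against 8.05 to 8.64, for the collagen hydroxylase gene P4ha1 at 9.42 against 10.36 to 11.08, and for Plod2 at 8.16 against 10.66 to 11.92. Its neuron marker list, at 11.09, was the highest of the group, and the part of that in these values was not tested.

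Among GFAP cortex tumors, tumor 1 had the lowest Pfkm level, 8.58, with the others at 10.63 to 10.94. The same tumor had the highest Ankrd37 level, 8.78, with the others at 7.49 to 7.52. Tumor 4 of that group had the highest P4ha1 level, 11.02 against 10.32 to 10.40. In normal hippocampus, array 1 stood highest for Gbe1, 8.12 against 7.86 to 7.89, and for Plod1, 9.31 against 9.004 to 9.024. Array 2 stood lowest for Pdk1, 8.59 against 8.74 to 8.75.

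The difference between GFAP tumors and normal tissue was unlike in hippocampus and cortex for 3 members, by the interaction in limma. It was larger in hippocampus by 1.00 for Pfkp (adjusted p = 0.0131) and by 1.19 for Pkm (adjusted p = 0.0312). With quantile normalization these were 0.73 and 0.48, and neither was called (limma adjusted p = 0.326 and 0.519). Pkm was also not called with averaged probe sets or with only the compared arrays (limma adjusted p = 0.101 and 0.0897). For Car12 the interaction was -1.98 (adjusted p = 0.0384), and -1.81 with the replicate block, where it was no longer called (adjusted p = 0.067).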

How the results depend on the processing

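Over the alternatives and left-out arrays, 363 counts of members higher or lower stayed within 1.5 times the reported count and 89 did not. Of the single-gene results, 1991 kept their direction and side of the threshold, 308 lost and 227 gained a call, and 1 reversed: Pgam1, NES versus GFAP hippocampus, was 0.63 with GFAP hippocampus tumors 5 to 7 only. The cause was not tested for any of these. Calls over all genes moved between settings too. The member counts below stand without that share, so they do not show a change particular to the members.

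Quantile normalization gave 3 members lower in GFAP cortex and 3 in GFAP hippocampus tumors, 5 higher in NES tumors, 0 higher for GFAP hippocampus versus cortex, and 0 in either direction for the interaction. Centring on the median gave 5 higher for the interaction, and averaging the probe sets of each gene gave 1. With only the compared arrays, NES tumors had 7 higher, NES versus GFAP 0 lower, GFAP hippocampus versus cortex 0 higher, normal hippocampus versus cortex 3 higher and 6 lower, and the interaction 1 higher. Without GFAP cortex tumor 1 and GFAP hippocampus tumors 5 to 7, GFAP hippocampus tumors had 2 lower, NES tumors 11 higher, SYN1 versus GFAP 8 higher, NES versus GFAP 1 higher and 18 lower, SVZ versus cortex 3 higher, SVZ versus hippocampus 1 lower, and the interaction 4 higher and 0 lower. With GFAP hippocampus tumors 1 to 4 only, 2 were lower against normal tissue, 16 lower for NES versus GFAP, and the interaction had 5 higher and 0 lower. With tumors 5 to 7 only, 2 were lower against normal tissue, 4 higher for NES versus GFAP, 1 lower for hippocampus versus cortex, 4 higher and 5 lower for SVZ versus hippocampus, and the interaction had 4 higher.

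With the replicate block, which leaves out samples without a partner, 10 members were higher in GFAP hippocampus than cortex tumors. There the numbers were taken to pair the samples because their deviations correlated in these data, which the labels do not state. The interaction includes these tumors, and the block gave 4 members higher and 0 lower in it. In the other comparisons the numbers were not taken to pair the samples, and the block gave 2 lower in GFAP hippocampus and 9 higher in NES tumors, 4 higher for SYN1 versus GFAP and 16 lower for NES versus GFAP. All other counts under the block stayed within 1.5 times.

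Leaving out each array in turn gave, as lowest and highest counts, 9 to 14 members higher and 3 to 6 lower in GFAP cortex, 16 to 20 and 3 to 6 in SYN1 cortex, 19 to 23 and 1 to 2 in GFAP hippocampus, 0 to 5 and 0 to 1 in NES, and 12 to 19 and 3 to 4 in SVZ tumors. SYN1 versus GFAP gave 0 to 1 higher, NES versus GFAP 0 to 1 higher and 0 to 15 lower, GFAP hippocampus versus cortex 2 to 7 higher, normal hippocampus versus cortex 0 to 1 higher, and the interaction 1 to 4 higher and 0 to 1 lower. In the exact tests of isoform pairs, 4 arrays against 3 cannot give p below 0.0571, so leaving out an array tests nothing there.

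The number of arrays, 3 to 7 a group, sets the precision, and in NES tumors each of the 4 calls was lost without at least 1 array. SVZ tumors had no normal tissue of their own region. Probe set signals carry no counts, so no counting error can be given.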
